A study of Sus scrofa with 12 samples.

Results

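RGS16, GRK5 and GNG3 encode proteins that act on signalling by heterotrimeric G proteins, and their transcripts were followed here in the livers of 12 pigs. The array carried 7 probe sets annotated to the 3 genes, 3 for RGS16, 1 for GRK5 and 3 for GNG3, of 23999 probe sets without control sequences. A probe set is a group of short probes that together read 1 transcript sequence. The genes were chosen by their differences between the 4 groups of animals in an earlier look at these same arrays. All values over those groups are therefore a description, and no test is given for them. A filter on dim signals kept 4 of the 7 probe sets and 15999 probe sets in all.

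A heterotrimeric G protein carries a signal from an activated receptor to enzymes inside the cell, through its alpha subunit and through its paired beta and gamma subunits. RGS proteins speed the hydrolysis of GTP on the alpha subunit and so end the signal, while G protein-coupled receptor kinases (GRKs) phosphorylate active receptors, which then bind arrestins and lose their coupling. In the liver, receptors of this kind respond to glucagon, catecholamines, vasopressin and angiotensin.

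All animals were adult German Landrace pigs labelled by stress response and by aggressiveness, and total liver RNA of each animal was hybridized to 1 Affymetrix porcine array. The groups were high stress response with high aggressiveness (high-high), high stress response with low aggressiveness (high-low), low stress response with high aggressiveness (low-high) and low stress response with low aggressiveness (low-low). Each group held 3 animals, 1 female and 2 males, and the labels do not say how either trait was scored. Animals are numbered within their group, and that number pairs no animals. The number of arrays limits the precision.

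Deposited signals were on a linear scale with the same trimmed mean of 500.2 on every array and medians from 92.7 to 117. Log2 signals of pairs of arrays correlated at 0.947 to 0.970 over probe sets, and high-high 3 and low-high 3, both females, had the lowest median correlations (0.954 and 0.955). Hepatocyte markers were bright in all groups, with summed signals of 9 of 10 listed markers between 289200 and 425600. The log2 ratio of the 3' to the 5' signal of the control transcript EF1A, a sign of RNA quality, was 0.757 to 0.993 at high and 0.685 to 0.748 at low aggressiveness, without overlap. For the control transcript GAPDH the ratio was 0.606 to 1.028 at high and 0.696 to 1.014 at low aggressiveness, with overlap. The part of these ratios in the differences with aggressiveness given below was not tested.

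The probe sets differed widely in brightness. The 17 Tag control probe sets, which have no target in the pig, had signals from 0.945 to 76.8 with a median of 9.26. The RGS16 and GNG3 probe sets are called brightest, middle and dimmest here, by their mean signal over the 12 animals. The brightest RGS16 probe set (mean signal 819 ± 247, SD, n = 12) and the GRK5 probe set (128 ± 40.7, SD, n = 12) lay above the highest Tag control of the same array in all 12 animals. The middle RGS16 probe set (56.6 ± 37.8, SD, n = 12) did so in 6 animals and the brightest GNG3 probe set (47.8 ± 24.7, SD, n = 12) in 7. The probe sets that failed the filter, the dimmest of RGS16 and the middle and dimmest of GNG3, had mean signals of 29.0, 24.7 and 14.9. Their signals passed the highest Tag control in only 2, 2 and 1 of the 12 animals. Differences of these dim probe sets are therefore differences near background. The plot of signals by animal shows all 7 probe sets against the Tag controls.

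**Figure D1:**
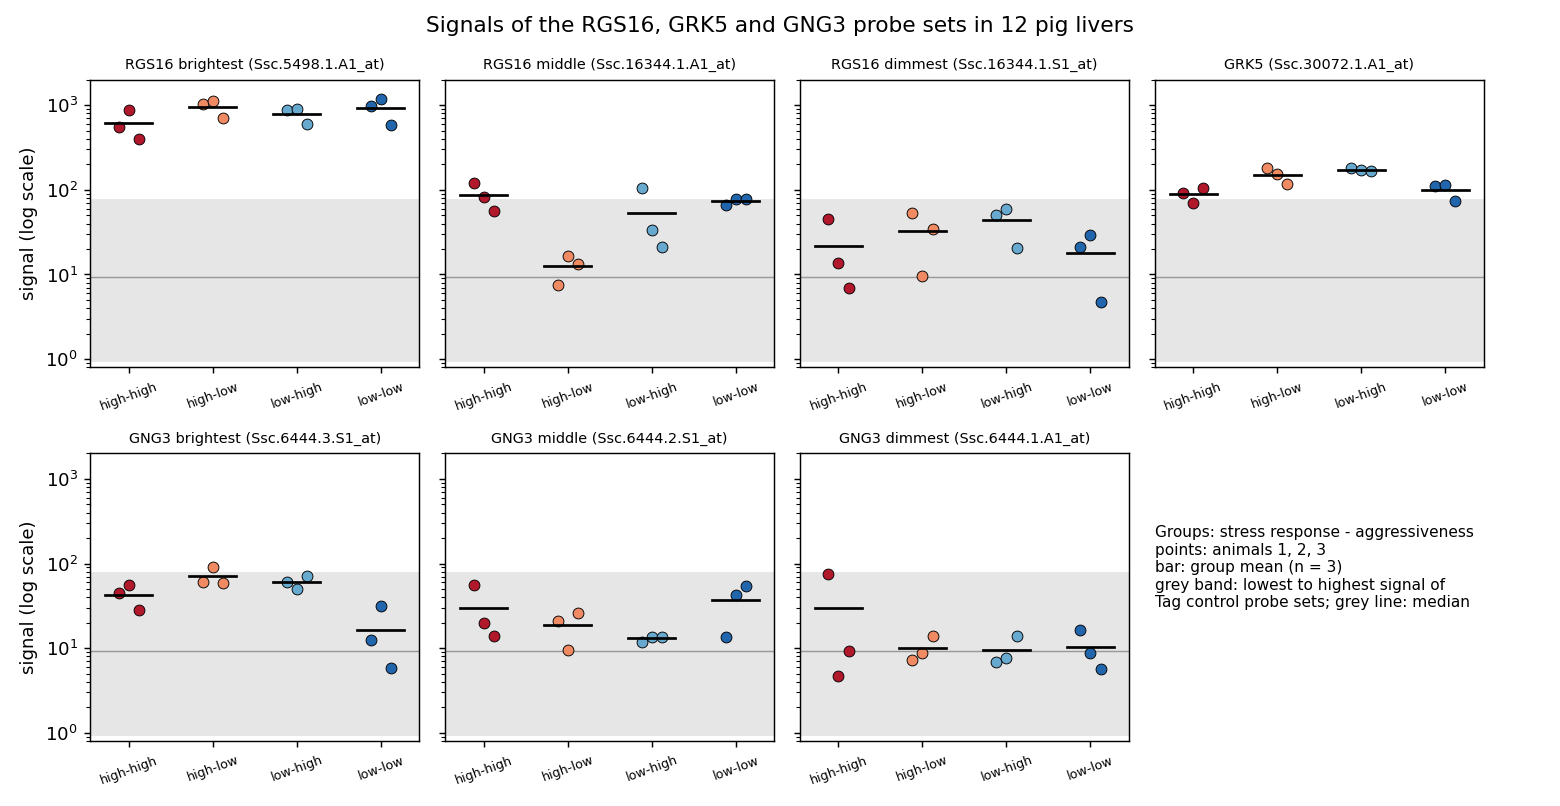
Signal (log axis) of each probe set of RGS16, GRK5 and GNG3 in the 12 animals, by group named as stress response and aggressiveness. Points are animals, bars are group means (n = 3), and the grey band runs from the lowest to the highest Tag control signal (0.945 to 76.8) with a line at their median (9.26). The brightest RGS16 probe set lies above the band in every animal, while the GNG3 probe sets lie almost wholly within it.

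GRK5 phosphorylates activated receptors at the cell membrane. It showed the clearest pattern of the 3 genes, lower where the levels of stress response and aggressiveness matched and higher where they did not. Its signals were 92.8, 69.3 and 105 in the high-high animals, against 181, 171 and 166 in the low-high animals. At low aggressiveness they were 180, 155 and 116 in the high-low animals, against 113, 115 and 74.3 in the low-low animals. Neither pair of groups overlapped, although the lowest high-low animal (116) lay just above the highest low-low animal (115). High stress response thus went with less GRK5 at high aggressiveness, a log2 difference of -0.86 ± 0.22 (SE), and with more at low aggressiveness, 0.51 ± 0.22 (SE). In bulk liver RNA, fewer cells of a type and less RNA per cell cannot be told apart.

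Read by the other trait, high-high animals averaged 89.0 ± 18.1 and high-low animals 150 ± 32.0 for GRK5 (SD, n = 3 each), a log2 difference of -0.66 ± 0.22 (SE). Low-high animals averaged 173 ± 7.65 and low-low animals 101 ± 22.8 (SD, n = 3 each), a log2 difference of 0.72 ± 0.22 (SE). The order of the group means was low-high, high-low, low-low and high-high. The low-high and high-low ranges overlapped, as did the low-low and high-high ranges, and only the step from high-low to low-low went beyond the spread. The interaction, the difference at high aggressiveness minus that at low, was -1.38 ± 0.31 (SE) on the log2 scale, while the averages over the other trait were -0.17 ± 0.25 for stress response and 0.03 ± 0.25 (SE) for aggressiveness.

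The main RGS16 result depended on the probe set. RGS16 acts on alpha subunits of the Gi and Gq classes, and in mouse liver its transcript follows feeding and the time of day. The middle RGS16 probe set had signals of 7.55, 16.6 and 13.4 in the high-low animals, against 66.98, 77.3 and 78.0 in the low-low animals. At high aggressiveness it had 119, 83.4 and 57.0 in the high-high animals, against 106, 33.1 and 21.2 in the low-high animals. The high-low group thus lay near the median of the Tag controls, below every animal of the other 3 groups, while the high-high and low-high ranges overlapped. Its log2 differences were -1.67 ± 0.32 (SE) between high-low and low-low, 0.71 ± 0.32 (SE) between high-high and low-high, and 1.81 ± 0.32 (SE) between high-high and high-low. The interaction was 2.38 ± 0.46 (SE). These sizes rest on the constant of 16 added before taking logs, and the interaction was 3.49 with a constant of 1 and 1.26 with 64.

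The brightest RGS16 probe set did not follow that pattern. It had signals of 560, 889 and 400 in the high-high animals and 1033, 1123 and 701 in the high-low animals. Signals were 870, 903 and 593 in the low-high animals and 989, 1181 and 591 in the low-low animals. All 4 groups overlapped, with means of 616 ± 250, 952 ± 222, 789 ± 170 and 920 ± 301 (SD, n = 3 each). The log2 difference between high-low and low-low was 0.08 ± 0.35 (SE), against the -1.67 of the middle probe set, and the interaction was -0.47 ± 0.49 (SE), or -0.75 to -0.13 with each animal left out in turn. This probe set is annotated to 2 gene IDs that both carry the symbol RGS16, only 1 of which is in the RefSeq table used here, whereas the other 2 probe sets share 1 gene ID and 1 source sequence.

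The dimmest RGS16 probe set was near background in every group. Its group means were 21.7 ± 20.3 in high-high, 32.3 ± 21.7 in high-low, 43.7 ± 20.5 in low-high and 18.2 ± 12.3 in low-low animals (SD, n = 3 each), with all groups overlapping. Its interaction of -1.18 ± 0.70 (SE) had the opposite sign to that of the middle probe set, although both are annotated to the same source sequence. The strand that each reads is not given in the sources used here. Over the 12 animals Pearson's r between the log2 signals of the 3 RGS16 probe sets was -0.20 for brightest and middle, -0.11 for middle and dimmest and 0.33 for brightest and dimmest.

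GNG3 is a gamma subunit best known from neurons. Its brightest probe set had its lowest group mean in the low-low animals, whose range overlapped that of the high-high animals. This probe set only just passed the filter, with a mean from log2 signals of 42.5 where the lowest tested was 40.6. It had signals of 60.4, 92.1 and 59.5 in the high-low animals, against 12.6, 31.4 and 5.91 in the low-low animals. It had 44.8, 56.2 and 28.2 in the high-high animals, against 60.4, 50.4 and 71.7 in the low-high animals. The high-low and low-high groups both lay above the low-low group without overlap, and the high-high group lay below the high-low group without overlap but shared its range with low-high. The log2 differences were 1.46 ± 0.31 (SE) between high-low and low-low, 1.30 ± 0.31 (SE) between low-high and low-low, -0.56 ± 0.31 (SE) between high-high and high-low, and -0.40 ± 0.31 (SE) between high-high and low-high. The interaction was -1.86 ± 0.43 (SE), and -2.81 with an added constant of 1 or -0.97 with 64.

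The other GNG3 probe sets went another way. The middle one averaged 29.8 ± 22.5 in high-high, 18.9 ± 8.42 in high-low, 13.1 ± 1.03 in low-high and 37.2 ± 21.3 in low-low animals (SD, n = 3 each), with an interaction of 1.1 ± 0.50 (SE). In the dimmest 11 of 12 animals had signals from 4.67 to 16.3 and 1 animal, high-high 1, had 75.9. Its interaction of 0.52 ± 0.67 (SE) was -0.18 without that animal. Pearson's r between the brightest GNG3 probe set and the middle and dimmest ones was -0.47 and 0.02 over the 12 animals. The 7 of 13 listed neuronal markers on the array were dim as well, and none passed the filter, though none was listed at 0. Their summed signal was 93.9 to 182 in high-high, 192 to 243 in high-low, 150 to 162 in low-high and 150 to 195 in low-low animals, and its part in the GNG3 values was not tested.

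**Figure D2:**
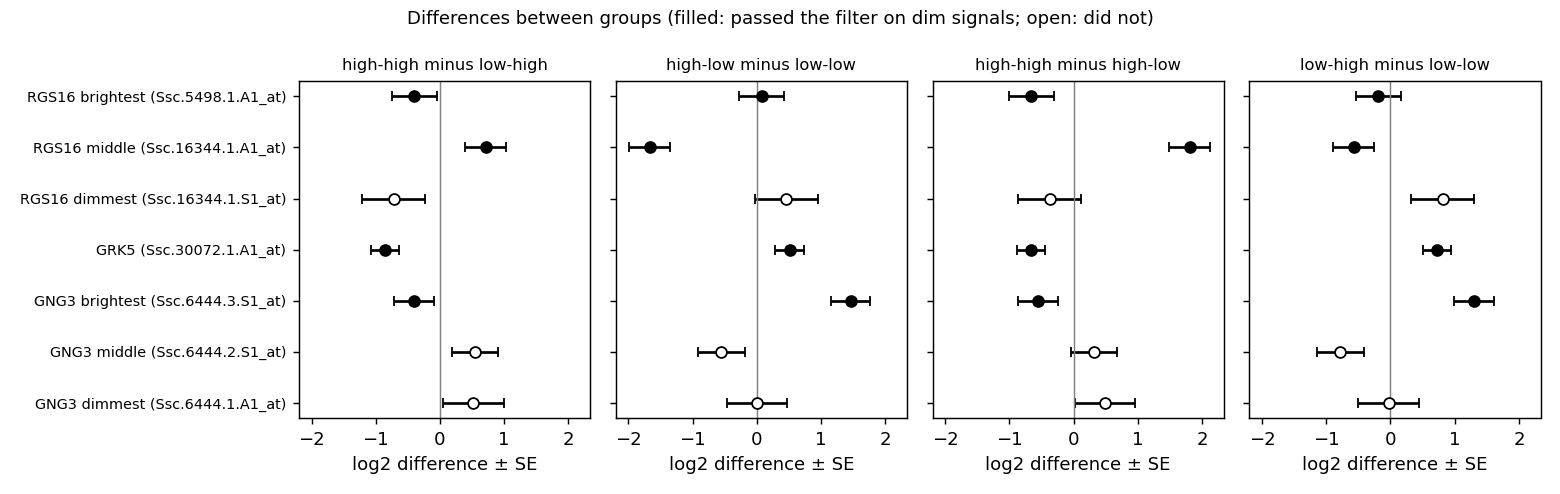
Log2 difference with its standard error for each probe set in the 4 comparisons of 2 groups, from log2(signal + 16). Filled points passed the filter on dim signals and open points did not. GRK5 changes side between high and low aggressiveness (-0.86 and 0.51), and the probe sets of RGS16, like those of GNG3, lie on both sides of 0 within a comparison.

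Non-overlap of 3 animals with 3 is common on these arrays, which bears on how the counts read. Between high-low and low-low, 3 of the 4 tested probe sets of the 3 genes did not overlap, against 10.8% of all tested probe sets. Between high-high and low-high it was 1 of 4, against 10.8%, between low-high and low-low 2 of 4, against 7.73%, and between high-high and high-low 3 of 4, against 7.54%. GRK5 was the only one of the 4 whose stress response groups were apart in opposite directions at high and low aggressiveness, as were 0.356% of tested probe sets. It was also the only one apart in all 4 comparisons with both traits crossing over, as were 0.144%. The genes were chosen on these contrasts, so nothing is read from their counts.

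Markers of other cell types were set beside these values. Summed signals of the 4 of 6 listed cholangiocyte markers on the array, of which 2 passed the filter, were 121 to 204 in high-high, 205 to 271 in high-low, 172 to 211 in low-high and 171 to 239 in low-low animals. That sum was higher in high-low than in high-high animals without overlap, opposite to the middle RGS16 probe set. The summed endothelial markers were 4802 to 5224 in high-high animals, below the 5264 to 5904 in low-high animals without overlap, as GRK5 was. They were 5085 to 5475 in high-low and 5081 to 6089 in low-low animals. The endothelial sum thus overlapped in the other comparisons of 2 groups, where GRK5 was apart. The sums of 6 macrophage markers (17520 to 24400), of 7 endothelial markers (4802 to 6089), of 7 stellate and smooth muscle markers (3896 to 9861) and of 8 lymphocyte markers (542 to 1118) overlapped between high-low and low-low animals. Their part in the results was not tested.

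Sex was not used to choose the genes and could be tested. Males had a higher mean signal than females for the brightest RGS16 probe set, 852 ± 228 (SD, n = 8) against 754 ± 308 (SD, n = 4), a log2 difference of 0.23 ± 0.25 (SE; limma, adjusted p = 0.953). The middle RGS16 probe set had 0.57 ± 0.44 (SE; limma, adjusted p = 0.949), GRK5 had -0.22 ± 0.26 (SE; limma, adjusted p = 0.954) and the brightest GNG3 probe set 0.17 ± 0.36 (SE; limma, adjusted p = 0.972). None of the 4 passed, and 0.0688% of all tested probe sets did (11 of 15999). At an unadjusted p under 0.01 the share of all tested probe sets was 1.15%, and none of the 4 was among them.

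The other genes of the pathway did not show group differences that passed. Of 125 symbols listed for RGS proteins, GRKs and arrestins, G protein subunits, effectors and hormone receptors, other names of the same gene included, 37 had a tested probe set. With limma, 0 of the 37 passed an adjusted p under 0.05 for stress response, aggressiveness, their interaction or sex. Among all tested probe sets 0% passed for stress response, 0% for aggressiveness and 0% for the interaction. At an unadjusted p under 0.01 the 37 genes gave 0 for stress response (1.91% of all tested probe sets), 0 for aggressiveness (0.513%), 1 for the interaction (0.65%) and 0 for sex. At an unadjusted p under 0.05 they gave 1 for stress response (8.16% of all tested probe sets), 1 for aggressiveness (3.22%), 1 for the interaction (3.87%) and 2 for sex (5.21%). The median log2 difference of the 37 was 0.03 for stress response, 0.02 for aggressiveness, -0.07 for the interaction and -0.04 for sex, against 0.03, 0.01, 0 and -0.04 over all tested probe sets.

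CREB1, the transcription factor that protein kinase A activates, was the gene with the interaction at an unadjusted p under 0.01 (-1.77 ± 0.40, SE; limma, adjusted p = 0.814). It had signals of 29.4, 69.0 and 8.68 in the high-high animals, against 78.9, 107 and 55.9 in the low-high animals. It had 48.7, 91.5 and 58.9 in the high-low animals, against 13.8, 47.3 and 45.1 in the low-low animals. These values were dim, and their group means crossed over as those of GRK5 did. Unlike for GRK5, the high-high range overlapped with those of the low-high and the high-low animals. The lowest high-low animal (48.7) lay just above the highest low-low animal (47.3). CREB1 also had the larger male signal (0.86 ± 0.34, SE; limma, adjusted p = 0.933).

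Values of the relatives of the 3 genes are given by family. Among 7 RGS proteins the interaction ran from -1.03 to 0.24 with a median of -0.50, and RGS2, a regulator of Gq with a mean signal of 811, had the lowest value (-1.03 ± 0.59, SE; limma, adjusted p = 0.999). RGS1, known from lymphocytes, had a log2 difference of -0.40 ± 0.14 (SE; limma, adjusted p = 0.879) between males and females, at a dim mean signal of 67.6. Among 5 GRKs and arrestins the interaction ran from -0.52 for GRK3 to 0.32, and ARRB2, a widely expressed arrestin, had 0.00 ± 0.30 (SE).

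Among 5 gamma subunits other than GNG3, GNG5, GNG11 and GNG10 were bright, with mean signals of 10050, 5514 and 2102, and the interaction ran from -0.15 to 0.46. GNG7, another gamma subunit, averaged 750 ± 117 in high-high and 490 ± 138 in high-low animals (SD, n = 3 each), and 551 ± 19.5 in low-high and 492 ± 39.3 in low-low animals (SD, n = 3 each). Its log2 difference for aggressiveness was 0.39 ± 0.15 (SE; limma, adjusted p = 1.00). Of 3 alpha subunits, GNAS, which activates adenylyl cyclase, had an interaction of -0.79 ± 0.36 and GNAI1, which inhibits it, -0.64 ± 0.39 (SE; limma, adjusted p = 0.999 for each). The GNAS probe set was dim, with a mean signal of 61.6, against 149 for GNAI1. Of 6 receptors, P2RY2, a receptor for ATP, had a log2 difference of -0.77 ± 0.35 (SE; limma, adjusted p = 0.603) for stress response at a dim mean signal of 45.9.

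**Figure D3:**
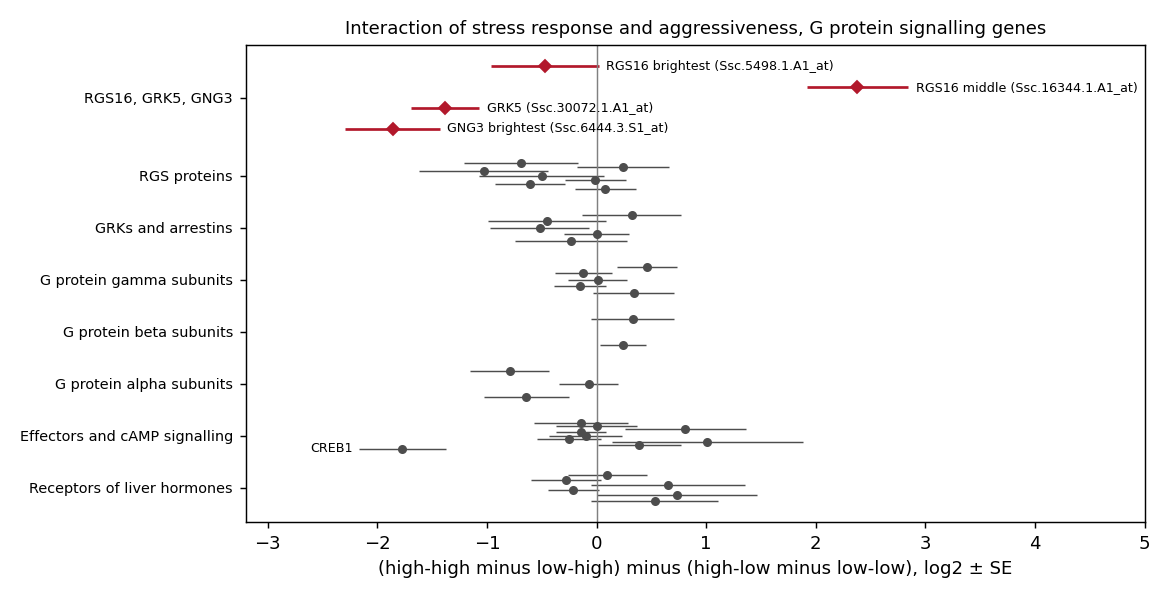
Interaction of stress response and aggressiveness (log2 ± SE) for the tested probe sets of RGS16, GRK5 and GNG3 (diamonds, SE from the fit on all probe sets) and for 37 other genes of G protein signalling by list (circles, SE from the fit on tested probe sets). The diamonds were chosen on these differences, and they span -1.86 to 2.38. Of the circles CREB1, at -1.77, lies lowest.

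The genes most like GRK5 over the 12 animals were TRMT1, a transfer RNA methyltransferase (Pearson's r = 0.891, Spearman's rho = 0.909), NEO1, the receptor neogenin (0.865 and 0.825), and JADE2 (0.843 and 0.832). They were picked as the highest of 5809 genes, so no p is given. Without the 2 animals farthest from the median of GRK5, r was 0.834, 0.909 and 0.748. With group means taken out, r was 0.809, 0.854 and 0.72. The most opposite genes were OGDHL, a form of the 2-oxoglutarate dehydrogenase subunit (r = -0.892), FAM26F (-0.858) and LAP3, an aminopeptidase (-0.849). With group means taken out, r was -0.684 for OGDHL, -0.846 for FAM26F and -0.773 for LAP3. OGDHL averaged 1052 ± 176 in high-high and 292 ± 105 in low-high animals, and 446 ± 411 in high-low and 1304 ± 263 in low-low animals (SD, n = 3 each). Animal high-low 3 had the highest OGDHL signal of its group (921, against 219 and 198) and the lowest GRK5 signal of its group (116).

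**Figure D4:**
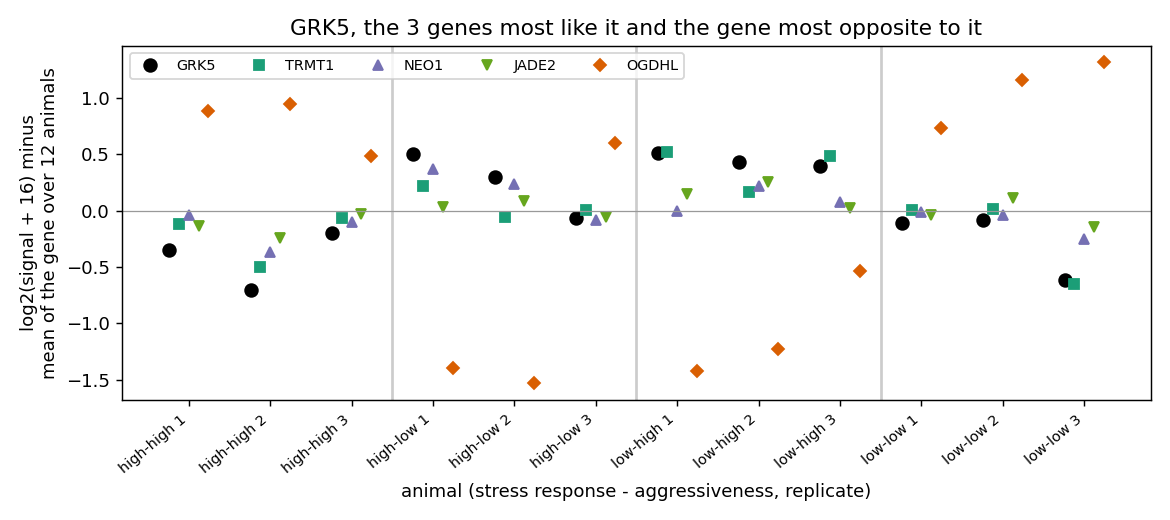
Log2(signal + 16) minus the mean of each gene over the 12 animals, for GRK5, the 3 genes most like it and OGDHL, by animal and group. GRK5 is low in high-high and low-low animals and high in low-high animals, OGDHL runs opposite, and high-low 3 departs from its group in both.

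For the brightest GNG3 probe set the most similar genes were IGFBP6, which binds insulin-like growth factors (Pearson's r = 0.916, Spearman's rho = 0.776), SH3BGRL3 (0.843 and 0.748) and ITIH5 (0.836 and 0.552), and the most opposite were CYP2C91 (r = -0.839), BACE2 (-0.813) and STN1 (-0.796). Without low-low 3 and low-low 1, the animals farthest from its median, r with IGFBP6 was 0.689. IGFBP6 had signals of 49.4, 94.6 and 27.0 in the low-low animals, where its group mean and that of GNG3 were lowest. After group means were taken out, r was 0.659 for IGFBP6, 0.881 for SH3BGRL3 and 0.160 for ITIH5. Among the opposite genes it was -0.718 for CYP2C91, -0.243 for BACE2 and -0.562 for STN1. Without low-low 3 and low-low 1 these had r of -0.564, -0.734 and -0.803.

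For the brightest RGS16 probe set the most similar genes were NDUFB7, a subunit of respiratory complex I (Pearson's r = 0.954, Spearman's rho = 0.881), BDH1, which interconverts ketone bodies (0.903 and 0.867), and ATP5G2, a subunit of ATP synthase (0.902 and 0.783). The most opposite were TPR, a nuclear pore protein (r = -0.941), ZFAND5 (-0.926) and TOP2B, a topoisomerase (-0.917). With group means taken out, r with NDUFB7 was 0.972 and r with TPR -0.939, so the likeness lay within the groups. The middle RGS16 probe set was most like SLC25A38 (0.827), ITGAV (0.818) and NDUFA5 (0.811), and most opposite to FAM57A (-0.842), THBS2 (-0.842) and NCK2 (-0.832). With group means taken out, r was 0.579 for SLC25A38, 0.322 for ITGAV and 0.685 for NDUFA5, and -0.810 for FAM57A, -0.700 for THBS2 and -0.209 for NCK2. None of these 6 genes was among the 6 named for the brightest RGS16 probe set.

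Genes of the circadian clock, of fasting and of the carbohydrate response were set against the 4 tested probe sets, since RGS16 in mouse liver follows all these states. Of 96 correlations over the 12 animals, 9 had a permutation p under 0.05, against 5 expected, and 0 passed after adjustment over the 96 (smallest adjusted p = 0.286). These permutations shuffled animals across groups, so the group differences on which the genes were chosen enter the p-values. All 96 correlations also share the same 12 animals, and nothing is read from the count of 9. For GRK5, NFIL3, a repressor of clock output, had r = -0.74 (permutation p = 0.00709, adjusted p = 0.286) and rho = -0.78 (permutation p = 0.00392, adjusted p = 0.376). That r was -0.77 without the 2 farthest animals and -0.20 with group means taken out. SDS, a serine dehydratase induced by fasting, had r = -0.73 with GRK5 (permutation p = 0.00943, adjusted p = 0.286) and rho = -0.61 (permutation p = 0.0405, adjusted p = 0.648), and r = -0.65 without the 2 farthest animals. Its r with GRK5 was -0.71 with group means taken out. SDS signals were 1197 to 1952 in high-high 2, high-high 3, high-low 3 and low-low 3, and 196 to 551 in the other animals. The pooled values therefore mix this split with any graded relation, and r within either set was not computed. For the brightest GNG3 probe set, IGFBP1, a fasting-induced binding protein, had r = 0.63 (permutation p = 0.0306, adjusted p = 0.489) and rho = 0.43 (permutation p = 0.168, adjusted p = 0.895). It had r = 0.07 without the 2 farthest animals, so that relation rested on them, and r = 0.3 with group means taken out. NFIL3 had r = -0.59 with this probe set (permutation p = 0.0399, adjusted p = 0.499) and rho = -0.68 (permutation p = 0.0185, adjusted p = 0.453). That r was -0.42 without the 2 farthest animals and -0.92 with group means taken out. FASN, the fatty acid synthase, had r = 0.59 (permutation p = 0.0492, adjusted p = 0.525) and rho = 0.56 (permutation p = 0.0627, adjusted p = 0.802), and r = 0.30 without the 2 farthest animals. Its r was 0.34 with group means taken out.

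Of the 7 clock genes tested, 3 had a permutation p under 0.05 with the brightest RGS16 probe set. The share over all tested genes was not computed, so nothing is read from this count. CRY2, a clock repressor, had signals of 454 in high-high 2, 487 in high-low 2, 490 in low-high 2 and 533 in low-low 2, and 120 to 267 in the other 8 animals. Each of these 4 males had the highest RGS16 signal of its group (889, 1123, 903 and 1181), although high-low 1 (1033) and low-low 1 (989) lay above the values of high-high 2 and low-high 2. As the CRY2 signals fell into separate clusters, no pooled correlation is given for it, though its p is counted among the 3 and in the count over all correlations. ARNTL, the clock activator, had r = -0.69 with this probe set (permutation p = 0.0149, adjusted p = 0.286) and rho = -0.68 (permutation p = 0.0189, adjusted p = 0.453), and r = -0.60 without the 2 farthest animals. Its r was -0.73 with group means taken out. ME1, a lipogenic enzyme, had r = 0.69 (permutation p = 0.0138, adjusted p = 0.286) and rho = 0.64 (permutation p = 0.0283, adjusted p = 0.544), and r = 0.50 without the 2 farthest animals. Its r was 0.82 with group means taken out. DBP, a clock output gene, had r = 0.59 (permutation p = 0.0416, adjusted p = 0.499) and rho = 0.37 (permutation p = 0.236, adjusted p = 0.911), and r = 0.23 without the 2 farthest animals. Its r was 0.67 with group means taken out, those 2 animals included. The time of sampling is not given in the sources used here.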

How the data were processed

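Signals are microarray intensities deposited by the authors as 1 table, made with GCOS 1.1.1 per the submitters' processing notes; summarisation and scaling are not given in the sources used here. The values were used as deposited, since the 2% trimmed mean was 500.2 on every array. The table held 24123 probe sets, from which 124 control sequences were removed and then the 33.3% of the remaining 23999 with the lowest mean log2(signal + 16), which set the lowest mean tested at 40.6. Gene names came from the platform table (10099 probe sets with 1 symbol, 198 with several, 13826 with none) and were updated through gene IDs, of which 9989 were in the RefSeq table.

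limma 3.58.1 in R 4.3.3 was fitted across all tested probe sets on log2(signal + 16), with stress response, aggressiveness and sex (8 residual degrees of freedom) or with the interaction added (7), and p-values were adjusted by Benjamini-Hochberg over 15999. Differences and SEs of the RGS16, GRK5 and GNG3 probe sets came from the same models fitted to all 23999. A gene stands for its tested probe set with the highest mean. The genes and lists were chosen with earlier results of these data known. Named were all probe sets of the 3 genes; up to 3 listed pathway genes each way per comparison with the smallest p; the 3 most and 3 least correlated genes; and RGS2, GRK3, ARRB2, GNG5, GNG10, GNG11, GNAS and GNAI1, chosen after their values were seen. The clock, fasting and carbohydrate genes named are all those with a permutation p under 0.05; permutation tests were two-sided with 100000 resamples. The labels do not say that animals of a group differed in litter or pen, so p-values measure the spread between these animals. In simulated data of this layout, 129 of 200 probe sets given an interaction of 2 were recovered with 7 false calls, and 63 of 66 given a sex difference of 2. For stress response, 16 of 67 given a difference of 0.5, 44 of 67 given 1 and 59 of 66 given 2 were recovered, with 11 false calls. Alternatives were other constants, filters, normalizations, variance models, males only, no sex term and each animal left out; added after the data were seen was the omission of high-high 3 and low-high 3. No scan dates or batches are given in the sources used here. Figures were drawn with matplotlib 3.10.9.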

Additional observations from a re-analysis of the deposited data

Results flagged for a closer look

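In the dimmest GNG3 probe set, animal high-high 1 had a signal of 75.9, far above the other 5 animals with high stress response and the other 5 with high aggressiveness. The same animal had 55.6 in the middle GNG3 probe set, far above the other 5 with high aggressiveness, while its signal in the brightest GNG3 probe set, 44.8, lay within its group. These 3 came from 28 groups of 6 animals examined, and about 1 in 20 groups is picked by chance.

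For GRK5 every high-high animal lay below every low-high animal and every high-low animal above every low-low animal, an interaction of -1.38 that was not tested because the gene was chosen on it. Read by aggressiveness the same holds, with high-high below high-low and low-high above low-low. For the brightest GNG3 probe set every high-high animal lay below every high-low animal and every low-high animal above every low-low animal (interaction -1.86, also not tested).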

How the results depend on the processing

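No paired analysis was possible because the labels give no replicate numbers. The interactions of the 7 probe sets were recomputed under 19 alternatives, and each kept its sign except that of the dimmest GNG3 probe set. With an added constant of 1 the interaction moved by more than the spread between animals to 3.49 and -2.05 for the middle and dimmest RGS16 probe sets, and to -2.81 and 1.73 for the brightest and middle GNG3 probe sets. With 64 it was 1.26 for the middle RGS16 probe set, -1.02 for GRK5, and -0.97 and 0.53 for the same GNG3 probe sets. A larger constant shrinks differences of low signals by construction. In males only the middle GNG3 probe set had 1.80, and the cause was not tested. Leaving out each animal in turn gave -1.51 to -1.23 for GRK5, 2.12 to 2.82 for the middle, -0.75 to -0.13 for the brightest and -1.64 to -0.69 for the dimmest RGS16 probe set, -2.16 to -1.57 for the brightest and 0.77 to 1.41 for the middle GNG3 probe set, and -0.18 to 0.96 for the dimmest GNG3 probe set, which was negative without high-high 1. The brightest RGS16 probe set moved by over 1.5 times without high-high 2 (-0.75), high-low 3 (-0.73), high-low 1 (-0.28), high-high 3 (-0.22) or low-low 3 (-0.13), and the dimmest without high-low 1 (-0.69).

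The sex difference of the brightest GNG3 probe set turned to -0.14 without high-high 3 and -0.02 without low-low 1, with 0.51 as the highest, and that of the brightest RGS16 probe set turned to -0.23 without high-high 3 and low-high 3; the cause was not tested. No sex difference of the 4 tested probe sets passed under any alternative (adjusted p 0.779 to 1.00). The count of 37 pathway genes that passed was 0 under every alternative for all 4 comparisons. At an unadjusted p under 0.01 it ran from 0 to 1 for stress response, stayed at 0 for aggressiveness, and ran from 0 to 2 for the interaction (1 as reported) and for sex. Where the 37 genes gave 2 for the interaction, without high-low 2, all tested probe sets gave 127 of 15999. Where they gave 0, all gave 74 of 11999 with the lowest 50% left out, 128 of 15999 in males only and 105 of 15999 without a sex term. Such shares are not given here for stress response and sex. Signals within the range of the Tag controls limit what the dim probe sets can show.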

Other observations

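Animals high-high 2, high-low 2, low-high 2 and low-low 2, 1 male of each group, had CRY2 signals of 454, 487, 490 and 533, and ARNTL signals of 133, 240, 163 and 143. The other 8 animals had ARNTL signals from 215 to 482, so that high-low 2 lay within their range. DBP, a clock output gene, was 865, 662, 908 and 778 in the same 4 animals in that order, and at most 608 in the others. These 4 animals had GRK5 signals of 69.3, 155, 171 and 115, which lay within the range of the other 8 apart from high-high 2, the lowest of all. The labels put no name to this division. In the numbered sample titles, high-high 2 stands next to high-low 2 and low-high 2 next to low-low 2. Those titles place all livers of low stress response before all of high. What the order follows is not given in the sources used here, and its part in the values was not tested.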
